A study of Mus musculus with 6 samples.

Results

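A set of 9 genes for transcription factors and coactivators of inner ear development was followed in the adult stria vascularis: Pou3f4, Tbx1, Tbx18, Eya1, Eya4, Gata3, Sox9, Dlx5 and Foxi1. They were listed by name, with earlier results of these data known, and every probe set to which the platform annotation gives one of these symbols was read. These were 18 of the 45037 probe sets tested and 9 of 18193 named genes. RNA of stria vascularis from 3 Slc26a4+/+ and 3 Slc26a4-/- pools was measured on Affymetrix mouse arrays, to ask how loss of the anion exchanger pendrin, the product of Slc26a4, alters expression in this epithelium. All mice were adults of about 5 months and, according to the series title, of the 129S6 strain, and no treatment is named for them. The Slc26a4-/- mice carried a germline loss of pendrin, so it was missing from every tissue and from early development on. For each array, RNA of 2 animals was pooled and taken through 2 rounds of amplification, and p-values measure the spread between such pools.

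The stria vascularis lines the lateral wall of the cochlea, secretes potassium into endolymph and generates the endocochlear potential, and the spiral ligament with its fibrocytes lies behind it. The otic vesicle and the mesenchyme around it are patterned by transcription factors, several of which stay expressed in the adult lateral wall. Eya proteins lack a DNA-binding domain of their own and act with homeobox factors of the sine oculis family, whereas Pou3f4 and the T-box factors Tbx1 and Tbx18 bind DNA and are needed in the mesenchyme or epithelium that forms the lateral wall. Foxi1 is a forkhead factor that switches on Slc26a4 and subunits of the proton pump in the endolymphatic duct and sac.

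Slc26a4 itself gave signals of 1353.8, 1262.1 and 793 in the Slc26a4+/+ arrays and of 520.2, 716.8 and 618.5 in the Slc26a4-/- arrays. All 3 Slc26a4-/- arrays were lower, although the difference did not pass the test (log2 fold change -0.85, SE 0.23, adjusted p = 0.119), and the place of the probe set relative to the disrupted part of the gene was not known here. A signal was called above background on an array when it exceeded 95% of the signals of 44 probe sets for olfactory receptors, a limit that lay between 187.1 and 319.2. The markers of the strial cell types were present, with 8 of 8 genes of marginal cells, 7 of 7 of the pigmented intermediate cells and 5 of 5 of basal cells above background, and 1 of 7 genes of hair cells and neurons. Genes of cells other than these were above background too, with 8 of 8 of spiral ligament fibrocytes, 6 of 7 of the fibrocyte matrix and 11 of 11 of macrophages. Some of these, such as Chad and Cd68, were so in Slc26a4-/- only. The Slc26a4+/+ arrays differed from each other in the Gapdh 3′ signal over the 5′ signal, which was 2.25, 7.19 and 10.5 in replicates 1, 2 and 3, against 3.34 to 3.80 in the Slc26a4-/- arrays. The same ratio for actin was 1.92, 4.10 and 3.88, against 1.78 to 2.25, so replicates 2 and 3 were again the highest but in the other order. The genotypes also differed in sex-linked transcripts. The Y-linked Eif2s3y gave 639.9 to 1540.8 in the Slc26a4+/+ arrays and 3.1 to 3.6 in the Slc26a4-/- arrays, and Xist gave 770.6 to 3358.3 and 5529.6 to 5862.7. Eif2s3y and Xist were both above background in all 3 Slc26a4+/+ arrays, of which replicate 2 had the highest Xist and the lowest Eif2s3y. The labels give no sex, and sex and genotype cannot be told apart.

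No member passed the test between the genotypes. With limma and Benjamini-Hochberg adjustment over all probe sets, 0 of the 18 member probe sets and 0 of the 9 genes reached an adjusted p under 0.05. Among all probe sets 778 of 45037 (1.73%) did, and among all named genes 488 of 18193 (2.68%), of which 342 were higher and 146 lower in Slc26a4-/-. At an unadjusted p under 0.05 stood 4 of the 18 member probe sets (22.2%; those of Tbx1 and Foxi1 and a pair of Eya4), against 11.9% of all probe sets. The paired test named in the Methods, run on the same log2 signals, gave 2 of 18 at that unadjusted threshold and 0 after adjustment. The median log2 fold change was -0.25 over the 9 genes and -0.03 over all named genes. Over the 7 genes with a mean signal of at least 200, which leaves out Dlx5 and Foxi1, the median was 0.13. In 5 of the 18 probe sets the signal was below background on all 6 arrays, and for 12 probe sets of 7 genes 2 or more arrays of a genotype exceeded it. Dlx5 and Foxi1 were the genes without such a probe set.

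**Figure D1:**
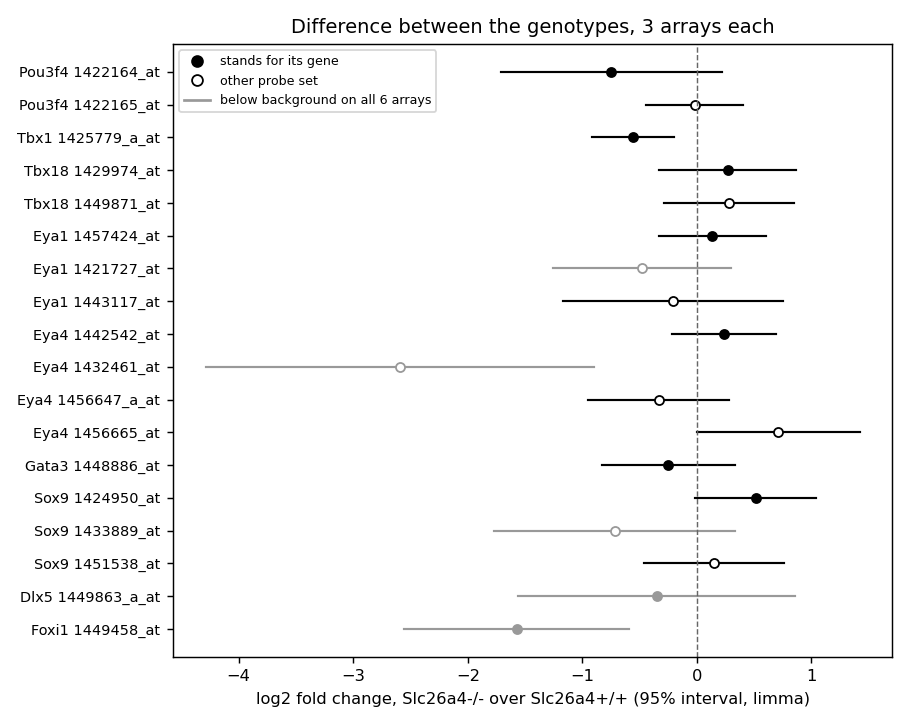
Log2 fold change of Slc26a4-/- over Slc26a4+/+ (x axis) with its 95% interval from limma for each of the 18 member probe sets (rows), 3 arrays per genotype. Filled points are the probe sets that stand for their gene, and grey marks the 5 probe sets below background on all 6 arrays, whose values are fitted differences of background-level signals; no probe set reached an adjusted p under 0.05.

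Pou3f4, a POU-domain factor of the otic mesenchyme whose loss causes X-linked deafness, had a pair of probe sets that did not behave alike. Probe set 1422164_at gave 1364.2, 1610.7 and 5016.2 in the Slc26a4+/+ arrays and 1101.3, 1103.0 and 1919.9 in the Slc26a4-/- arrays. The groups overlapped, and the mean of the Slc26a4+/+ arrays (2664 ± 2041, SD, n = 3) rested on replicate 3, the array with the highest Gapdh ratio. The log2 fold change was -0.75 (95% interval -1.71 to 0.22, adjusted p = 0.561), and it was -0.16 without that array. Probe set 1422165_at gave 639 ± 113 and 628.5 ± 85.5 (SD, n = 3 each), a log2 fold change of -0.02 (95% interval -0.44 to 0.40). Pou3f4 lies on the X chromosome, and the part of the sex difference between the groups in its values was not tested.

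Tbx1, the T-box factor whose loss leaves a malformed inner ear and which is part of the DiGeorge region, was lower in every Slc26a4-/- array. Its signals were 2701.9, 2715.0 and 3749.2 in the Slc26a4+/+ arrays and 1932.6, 2016.1 and 2213.2 in the Slc26a4-/- arrays. The groups did not overlap, with means of 3055 ± 601 and 2054 ± 144 (SD, n = 3 each). The log2 fold change was -0.56 (SE 0.16, 95% interval -0.92 to -0.20), with an unadjusted p of 0.00627 and an adjusted p of 0.156. In all, 3 of the 18 member probe sets were lower without overlap (16.7%, against 9.40% of all probe sets) and 1 was higher without overlap (5.56%, against 8.46%). Those lower were Tbx1, Foxi1 and Eya4 1432461_at, the last of them, like Foxi1, below background on all 6 arrays. With limma's array weights, which gave Slc26a4+/+ replicates 1 and 3 weights of 0.372 and 0.316 and replicate 2 a weight of 2.81, Tbx1 passed (log2 fold change -0.43, adjusted p = 0.0375). With these weights 4084 of all 45037 probe sets passed, against 778 without them. Unweighted, the Tbx1 log2 fold change was as far as -0.64 and as near as -0.40 when single arrays were left out, with adjusted p from 0.0654 to 0.479.

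Tbx18, the T-box factor needed for the fibrocytes of the spiral ligament to form, showed no difference beyond the spread of the arrays. Probe set 1429974_at gave 4256.7, 2510.4 and 1771.1 in the Slc26a4+/+ arrays and 3473.2, 2990.2 and 3185.6 in the Slc26a4-/- arrays. All 3 Slc26a4-/- values lay inside the range of the Slc26a4+/+ values, whose highest was 2.40 times the lowest, against 1.16 times in Slc26a4-/-. The log2 fold change was 0.27 (95% interval -0.33 to 0.86, adjusted p = 0.765). The other probe set, 1449871_at, gave 396 ± 139 and 465 ± 57.9 (SD, n = 3 each) and a log2 fold change of 0.28 (95% interval -0.29 to 0.85).

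**Figure D2:**
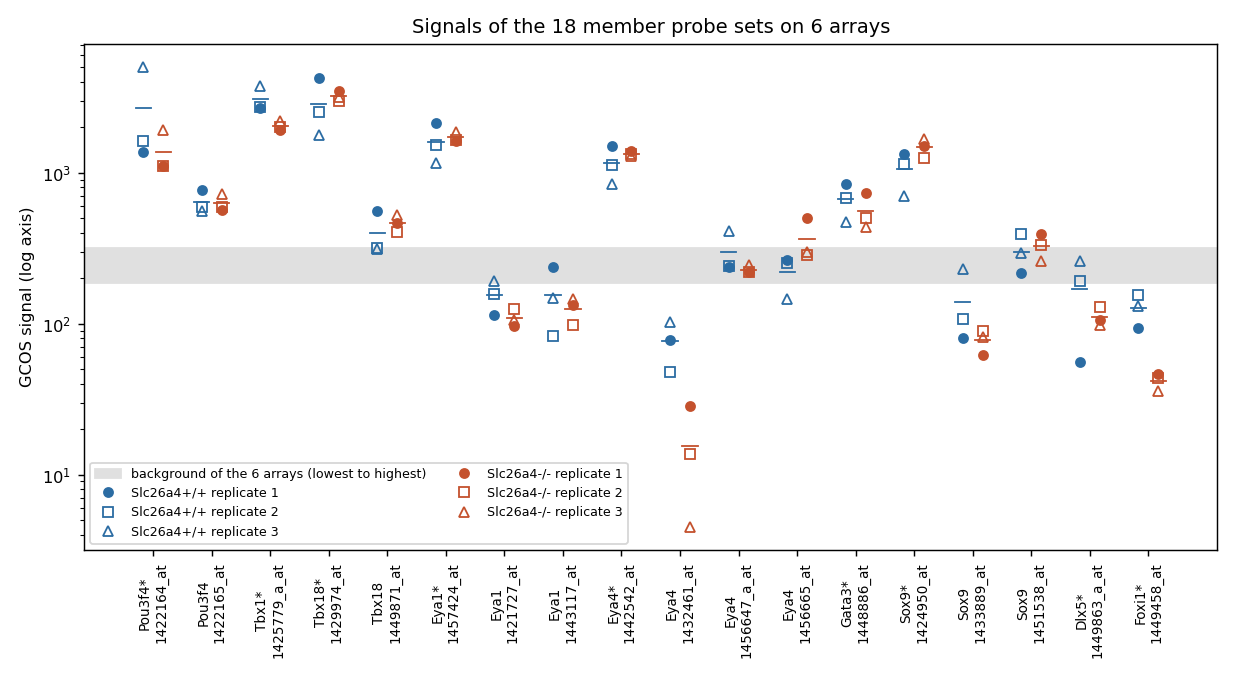
GCOS signal on a log axis (y axis) of the 18 member probe sets (x axis; an asterisk marks the one that stands for its gene), each point an array, with the replicate given by the symbol, short lines at the genotype means, and a grey band from the lowest to the highest background of the 6 arrays, 187.1 to 319.2. The Tbx1 and Foxi1 arrays of the genotypes do not overlap, and each Foxi1 and Dlx5 value lies below the background of its own array.

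Eya1 and Eya4 are coactivators with phosphatase activity, mutated in branchio-oto-renal syndrome and in a dominant form of progressive deafness. Eya1 probe set 1457424_at gave 2134.7, 1533.3 and 1158.2 in the Slc26a4+/+ arrays and 1627.7, 1651.6 and 1858.6 in the Slc26a4-/- arrays. Eya4 probe set 1442542_at gave 1510.7, 1132.5 and 847.0 in the former and 1387.1, 1320.9 and 1292.2 in the latter. In both, the Slc26a4-/- arrays sat close together within the range of the Slc26a4+/+ arrays. The log2 fold changes were 0.13 (95% interval -0.33 to 0.60) for Eya1 and 0.24 (95% interval -0.22 to 0.69) for Eya4. Without Slc26a4+/+ replicate 3 they were -0.082 and 0.027. Of the other Eya1 probe sets, 1421727_at lay between 96.7 and 192.6, below background on all arrays, and 1443117_at between 82.3 and 235.6, above it on 1 array. Of the other Eya4 probe sets, 1456665_at gave 263.6, 251.3 and 146.1 in the Slc26a4+/+ arrays and 498.7, 285.0 and 299.2 in the Slc26a4-/- arrays, without overlap, and was above background in 1 array of the former and 3 of the latter. Its log2 fold change was 0.71 (SE 0.32, unadjusted p = 0.0496, adjusted p = 0.419). Probe set 1456647_a_at had a log2 fold change of -0.33 (adjusted p = 0.706), and 1432461_at was below background on all 6 arrays, with 47.8 to 102.8 in the Slc26a4+/+ arrays and 4.5 to 28.5 in the Slc26a4-/- arrays. The Eya4 probe sets therefore did not share a direction.

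Gata3, the zinc finger factor whose loss of one copy causes hypoparathyroidism with deafness, gave 840.7, 682.4 and 472.4 in the Slc26a4+/+ arrays and 733.7, 500.1 and 438.9 in the Slc26a4-/- arrays. The groups overlapped, with a log2 fold change of -0.25 (95% interval -0.83 to 0.33, adjusted p = 0.777), which ran from -0.48 without Slc26a4+/+ replicate 3 to -0.062 without replicate 1. Sox9, the factor of otic placode and chondrocytes, gave 1337.3, 1146.6 and 695.7 in the Slc26a4+/+ arrays and 1495.3, 1246.2 and 1666.6 in the Slc26a4-/- arrays with probe set 1424950_at. Its means were 1060 ± 329 and 1469 ± 211 (SD, n = 3 each), and the log2 fold change of 0.51 (95% interval -0.02 to 1.04, adjusted p = 0.439) did not pass. It was 0.24 without Slc26a4+/+ replicate 3 and 0.71 without replicate 1. Sox9 probe set 1451538_at gave a log2 fold change of 0.15 (adjusted p = 0.884), and 1433889_at was below background on all arrays. Of 10 cartilage genes that Sox9 is known to activate, Col9a2, a chain of collagen IX, rose (10%, beside 2.68% of all named genes). The other 9 did not pass, and the median log2 fold change was 0.07 over the list. At an unadjusted p under 0.05 stood 3 of the 10, against 2710 of 18193 named genes. They were Col9a2 and the other collagen IX chains, Col9a1 and Col9a3 (adjusted p = 0.233 and 0.368). Col9a1 gave means of 423 and 626 and Col9a3 of 595 and 807, both higher without overlap, as were 8.46% of all probe sets. Col9a2 gave 167.5, 95.6 and 31.8 in the Slc26a4+/+ arrays, all below background, and 484.4, 390.7 and 539.1 in the Slc26a4-/- arrays, all above it, and was at least 1.81-fold higher (adjusted p = 0.0433). That call was lost under 11 of 19 alternative settings, among them without Slc26a4+/+ replicate 2 and without any single Slc26a4-/- array.

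Dlx5 and Foxi1 did not exceed background on any array. Dlx5, a homeobox factor of the dorsal otocyst, gave 55.9, 190.3 and 260.0 in the Slc26a4+/+ arrays and 105.7, 129.2 and 97.9 in the Slc26a4-/- arrays, all below background. Foxi1 gave 94.1, 155.5 and 130.2 in the Slc26a4+/+ arrays and 46.6, 43.5 and 35.8 in the Slc26a4-/- arrays, also below background throughout. The Foxi1 arrays did not overlap (unadjusted p = 0.00522, adjusted p = 0.142), but no fold is given for a signal below background in both groups. With array weights Foxi1 passed (adjusted p = 0.0120), as did 4084 of all 45037 probe sets, against 778 without weights.

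Foxi1 is the member known to act on Slc26a4, so the stretch before the transcription start of both genes is shown, from RefSeq on build GRCm38.p6, 250 bases each, 5′ to 3′ on the strand of the gene, with the letters TATAA in capitals. The Slc26a4 stretch is at chr12:31559985-31560234 on the minus strand, with TATAA starting 31 bases before the transcription start, and the Foxi1 stretch is at chr11:34208090-34208339 on the minus strand, with TATAA 30 bases before the start.
Slc26a4: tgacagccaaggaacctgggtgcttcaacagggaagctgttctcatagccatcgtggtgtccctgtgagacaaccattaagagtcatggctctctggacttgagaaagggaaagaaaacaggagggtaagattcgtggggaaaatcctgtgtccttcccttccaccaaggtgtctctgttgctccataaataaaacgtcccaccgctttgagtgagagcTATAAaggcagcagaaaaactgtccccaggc
Foxi1: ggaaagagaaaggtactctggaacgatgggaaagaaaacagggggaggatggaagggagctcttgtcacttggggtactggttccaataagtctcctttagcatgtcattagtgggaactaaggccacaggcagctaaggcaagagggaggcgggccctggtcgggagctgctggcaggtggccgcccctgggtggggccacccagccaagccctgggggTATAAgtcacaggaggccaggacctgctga
TATAA stood on the strand of the gene before the start in 5255 of 32851 promoters. The forkhead core TGTTTA or TGTTTG, searched on both strands over 250 bases before and 50 after the start, was found in 28.2% of the 32851. The Slc26a4 window held CAAACA, which reads TGTTTG on the other strand, from base 28 after the start. Of the 6 members with a promoter in the table, with 8 windows between them, Pou3f4 had TGTTTA at 68 bases before the start.

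Known targets and partners of the members were read beside them. Of 5 genes that Foxi1 is known to act on, 0 passed, with 1 at an unadjusted p under 0.05, which was Slc26a4. That is the gene disrupted in the Slc26a4-/- mice, so its signal cannot be read as an effect of Foxi1. Atp6v1a, a subunit of the proton pump, gave means of 3485.5 ± 1286 and 4684 ± 340 (SD, n = 3 each, adjusted p = 0.506), and Atp6v1b1 was below background. Of 5 sine oculis and dachshund genes, partners of Eya proteins, 0 passed. Dach2, one of the dachshund cofactors, gave 302 ± 48.0 and 592 ± 93.5 (SD, n = 3 each), with a log2 fold change of 0.97 and an adjusted p of 0.0549. Six2 and Six5 gave means of 927 and 338 in Slc26a4+/+ and of 690 and 259 in Slc26a4-/- (adjusted p = 0.443 and 0.589). Of 6 genes tied to Pou3f4 by function or expression, 0 passed and 0 had an unadjusted p under 0.05. Gjb6, a gap junction protein of the lateral wall, gave means of 15257 and 13060 (adjusted p = 0.578), the ephrin receptor Epha7 gave 580 and 796 (adjusted p = 0.502), and Col2a1, a cartilage collagen, gave 210 and 251 (adjusted p = 0.835).

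Of 61 other genes of otic patterning, 54 were named on the arrays and 33 were above background. Etv5 and Sox2 rose in Slc26a4-/- and 0 fell, so 3.70% of the 54 passed beside 2.68% of all named genes, and the median log2 fold change was -0.09. The ETS factor Etv5 gave 431.4, 405.0 and 268.0 in the Slc26a4+/+ arrays and 860.5, 838.5 and 921.6 in the Slc26a4-/- arrays (log2 fold change 1.28, SE 0.21, adjusted p = 0.0155). Sox2, a factor of the prosensory domain that is also expressed in glia, gave 19.8, 31.1 and 6.9 in the Slc26a4+/+ arrays, all below background. In the Slc26a4-/- arrays it gave 242.6, 232.6 and 242.5, all just above background (adjusted p = 0.0115), and no fold is given because the bound on it was under 1. Both calls were lost when any single Slc26a4-/- array was left out, with adjusted p of 0.0718 to 0.0848 for Sox2 and 0.0816 to 0.112 for Etv5. The log2 fold change of Etv5 stayed between 1.24 and 1.30 in these fits. The fitted log2 difference of Sox2 was 3.87 to 3.90, but it rests on Slc26a4+/+ signals below background. It was 3.27 to 4.35 without single Slc26a4+/+ arrays and 1.90 with signals under 64 raised to 64. Of 19 alternatives, 8 lost the Etv5 call, also centring on the median (adjusted p = 0.0820), floors of 16 and 64 (0.0754 and 0.0920) and no trend (0.166), and the Sox2 call was lost without the trend too (0.0892). The paired test named in the Methods called neither, but it called 0 of all 45037 probe sets, so this says nothing particular about these genes.

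**Figure D3:**
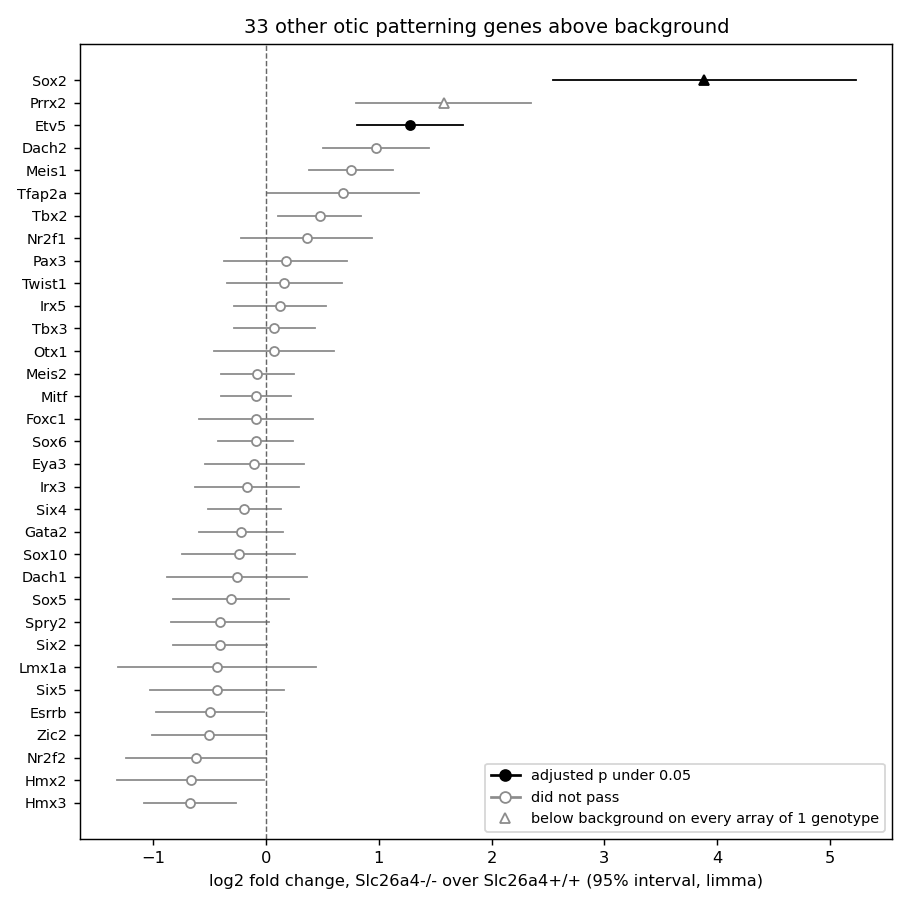
Log2 fold change of Slc26a4-/- over Slc26a4+/+ (x axis) with its 95% interval from limma for the 33 other otic patterning genes (rows) with 2 or more arrays of a genotype above background. Etv5 and Sox2, in black, reached an adjusted p under 0.05; triangles mark genes below background on every array of 1 genotype, Sox2 among them, for which the value is a fitted difference and no fold.

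The members varied more among the Slc26a4+/+ arrays than among the Slc26a4-/- arrays. Over the 12 member probe sets above background, the highest signal was 1.79 times the lowest (median) in Slc26a4+/+ and 1.28 times in Slc26a4-/-, and the range was wider in Slc26a4+/+ for 12 of 12. Over all 19640 probe sets above background these values were 1.49 and 1.21, and 79.6% were wider in Slc26a4+/+. When the Slc26a4+/+ arrays were ordered by their Gapdh ratio, 8 of the 12 probe sets fell at each step (66.7%), among them those that stand for Tbx18, Eya1, Eya4, Gata3 and Sox9, against 24.5% of those 19640 probe sets. By the actin ratio, which exchanges replicates 2 and 3, 0 of the 12 fell at each step (against 9.66% of the 19640) and 1 rose. A probe set that falls or rises at each step in either order cannot do so in the other. The actin count was therefore largely fixed by the Gapdh count and is no separate check, and both depend on the order of those arrays. By the Gapdh ratio another 3 rose at each step (25%, against 28.0%), which were Tbx1, Pou3f4 1422164_at and Eya4 1456647_a_at. In each of them the larger step was that to replicate 3. Several of these probe sets share a gene, so the 12 are not independent. With the Gapdh ratio as a covariate, the log2 fold change was -0.07 for Tbx18 1429974_at, -0.10 for Eya1 1457424_at, 0.02 for Eya4 1442542_at, 0.29 for Sox9 1424950_at, -0.35 for Pou3f4 1422164_at and -0.46 for Tbx1 (adjusted p = 0.157). It lay farther from 0 than without the covariate for Gata3 (-0.44), Sox9 1451538_at (0.33), Pou3f4 1422165_at (-0.16) and Eya1 1443117_at (-0.49), and 0 members passed.

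**Figure D4:**
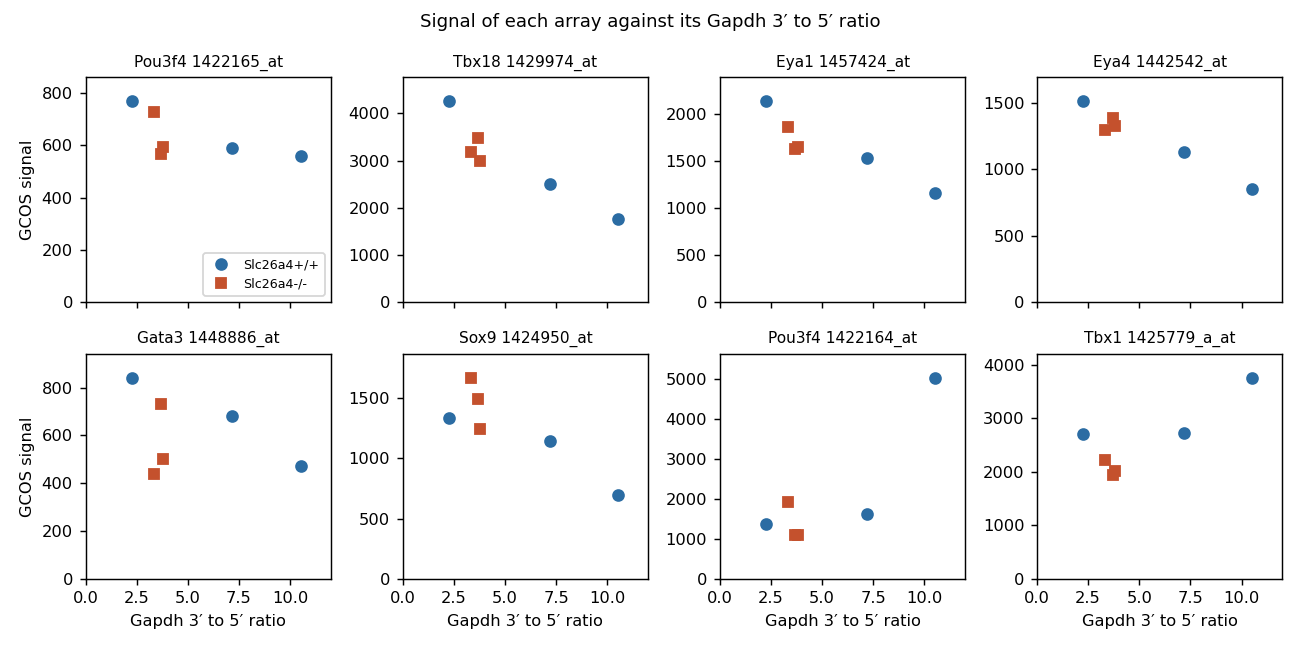
GCOS signal (y axis, linear and starting at 0) of 8 member probe sets above background, those that stand for their gene and the second of Pou3f4, against the Gapdh 3′ to 5′ ratio (x axis), each point an array and each colour a genotype. The Slc26a4-/- arrays lie together between 3.34 and 3.80, while the Slc26a4+/+ arrays spread from 2.25 to 10.5, and along them Tbx18, Eya1, Eya4, Gata3, Sox9 and Pou3f4 1422165_at fell at each step while Pou3f4 1422164_at and Tbx1 rose. Tbx1 went from 2701.9 to 2715.0 and then to 3749.2. By the actin ratio, which orders these arrays otherwise, 0 of the 12 member probe sets above background fell at each step. A probe set that falls at each step in either order cannot do so in the other, so this is no separate check.

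Several lists of cell type markers moved between the genotypes, and their part in the members' values was not tested. In a bulk sample fewer cells of a type and less RNA per cell cannot be told apart. By qRT-PCR the paper found a small carry-over between stria vascularis and spiral ligament, larger in Slc26a4-/- than in Slc26a4+/- mice. Its part in the values of these arrays was not tested. Of 8 genes of spiral ligament fibrocytes other than the members, 5 rose (Otos, Dcn, Ucma, Chad and Vim) and 0 fell. Otos, which encodes otospiralin, gave 518.1 to 803.7 in Slc26a4+/+ and 1751.3 to 2769.8 in Slc26a4-/-. Their summed signal was 41825 to 49153 in Slc26a4+/+ and 52536 to 55359 in Slc26a4-/-. Of 7 genes of the fibrocyte matrix 3 rose (Dcn, Col1a2 and Col3a1), with a summed signal of 3303 to 4582 in Slc26a4+/+ and 6755 to 6821 in Slc26a4-/-. Of 11 macrophage genes 9 rose (Lyz2, Lgals3, Cd68, Mpeg1, Ptprc, Cd83, C1qa, C1qb and C1qc) and 0 fell, with a summed signal of 5940 to 8336 in Slc26a4+/+ and 38777 to 40518 in Slc26a4-/-. Of 8 genes of marginal cells 2 fell, Kcne1 and Atp13a5, and 0 rose, with a summed signal of 53294 to 71327 in Slc26a4+/+ and 39769 to 41921 in Slc26a4-/-. The sums of the fibrocyte and marginal cell genes follow their brightest probe sets, which were Slc12a2, held by both lists, with Car3 in the former and Atp1b2 in the latter, and none of these passed (adjusted p = 0.365, 0.363 and 0.458). Tyrp1 and Pmel, pigment genes of the intermediate cells, rose among 7, and P2rx2, a purinergic receptor, among 5 genes of spindle and root cells, while 0 of 5 basal cell genes passed. Among 6 genes of the cartilage and bone of the otic capsule, 2 were above background and 0 passed.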

How the data were processed

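Stria vascularis RNA was measured on 6 Affymetrix arrays, 3 per genotype. The intensity values deposited by the authors are linear signals, background-corrected and scaled in GCOS. The sources used here do not give its version or scaling target. Detection calls and probe sequences were not used. Arrays took their genotype and replicate from the labels. Of 45101 probe sets, 64 controls were left out and 45037 tested; 34945 had 1 gene symbol, 932 several and 9160 none.

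Signals were floored at 1 (172 values lay under it), and the genotypes were compared on log2 signals with limma 3.58.1 in R 4.3.3 (lmFit, eBayes with trend), with Benjamini-Hochberg adjustment over all probe sets at 0.05. Python 3.11.15, pandas 2.3.3 and scipy 1.17.1 made the tables. Of several probe sets the one brightest on average (log2) stood for the gene. The text names every member, and from other lists those that passed, or the 3 with the smallest p where none did. For cell type lists without a call these 3 were left out. Col9a1 and Col9a3 were named as well, as the other chains of collagen IX. The limma fit was checked on simulated data with the same spread in both genotypes. These arrays varied more in Slc26a4+/+, so that check does not give the power of the test here. The members and lists were chosen with earlier results of these data known. Alternatives covered centring, quantile normalization, the floor, a pseudocount of 16, a mean signal of at least 200, array weights and the Gapdh ratio. They also covered the replicate block, the paired t-test with same-numbered arrays as pairs, and leaving out arrays. The number of arrays limits the precision.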

Additional observations from a re-analysis of the deposited data

How the results depend on the processing

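Of the 18 member probe sets 0 passed, and array weights (2, Tbx1 and Foxi1) changed this among the alternatives run. The count of all probe sets was 778 and became 1231 with the Gapdh ratio as covariate, 4084 with array weights, 448 centred on the median, 456 and 445 with signals under 16 or 64 raised to that floor, 114 without the trend, 0 with the paired t-test (3980 at an unadjusted p under 0.05), and 1304 without both Slc26a4+/+ replicates 2 and 3, an alternative chosen after seeing the data in which the lone array was assumed to vary like the others. Leaving out single arrays gave 219 to 1714, the extremes without Slc26a4-/- replicate 3 and Slc26a4+/+ replicate 1. The count of other otic genes, 2, became 5 with the Gapdh ratio, 12 with array weights, 4 at a mean signal of at least 200, 1 with the floor of 16, 0 with the paired t-test or without the trend, 5 without both Slc26a4+/+ arrays, and 0 to 7 without single arrays. The cause was not tested. The median of the member genes was 0.13 at a mean signal of at least 200, which leaves out Dlx5 and Foxi1.

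With the replicate block, 832 probe sets, 4 other otic genes and 0 members passed. Same-numbered arrays deviated together with correlations of 0.09, 0.03 and 0.03, so the numbers were not taken to pair the samples.

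Of 336 log2 fold changes of member probe sets under 19 alternatives, 314 kept their direction and their side of the threshold, and 20 turned sign. With the Gapdh covariate these were Dlx5 0.28, Eya1 1457424_at -0.10 and Tbx18 1429974_at -0.066; with array weights Eya1 1443117_at 0.36, Pou3f4 1422165_at 0.078 and Sox9 1451538_at -0.19; centred on the median Pou3f4 1422165_at 0.061; without both Slc26a4+/+ arrays Dlx5 0.98, Eya1 1457424_at -0.32, Eya4 1442542_at -0.18, Tbx18 1429974_at -0.41 and Tbx18 1449871_at -0.27. Without single arrays Dlx5 spanned -1.01 to 0.10, Eya1 1443117_at -0.60 to 0.16, Eya1 1457424_at -0.082 to 0.36, Pou3f4 1422165_at -0.13 to 0.12, Sox9 1451538_at -0.069 to 0.36 and Tbx18 1429974_at -0.026 to 0.61. Dlx5 was below background on all arrays.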
